A study of Mus musculus with 8 samples.

Results

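In all, 10 genes of the BCL2 family, which sets whether a cell's mitochondria release the signal for apoptosis, were followed in the heart ventricle of mouse embryos in which Lem2 was targeted. They were taken by gene symbol (Bcl2, Bcl2l1, Bcl2l2, Mcl1, Bax, Bak1, Bbc3, Pmaip1, Bcl2l11 and Bid), and all 10 were among the 15358 genes listed and among the 14887 that passed the filter on low counts. RNA-seq was made from whole heart ventricle at embryonic day 14.5. Control embryos were Lem2 f/f (floxed on both alleles), and conditional knockout (cKO) embryos were XMLC2V; Lem2 f/f, so that both groups carried the floxed alleles and the cKO group alone carried the Cre transgene labelled XMLC2V. The labels do not spell out that name or say which cells express the Cre, and embryos with Cre and no floxed allele were not analysed here. A whole ventricle holds endothelial, epicardial and blood cells beside heart muscle. The labels list 4 control and 4 cKO samples, and 3 control and 4 cKO libraries were analysed here.

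BCL2 family proteins act on the outer membrane of the mitochondrion. The survival proteins hold the effectors BAX and BAK in check, and the BH3-only proteins relieve that check or activate the effectors directly. Once active, BAX and BAK open the membrane and let out cytochrome c, which switches on the caspases. Heart muscle cells depend on survival members such as MCL1, and Noxa (Pmaip1) and PUMA (Bbc3) are known as direct targets of p53.

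Lemd2, the gene of Lem2, fell to 0.457 of its control level in cKO ventricle (log2 fold change -1.13, SE 0.086, adjusted p = 0.00135). Adjusted p-values come from the quasi-likelihood test of edgeR, Benjamini-Hochberg corrected across every gene tested, unless DESeq2 is named. Library totals lay between 28921922 and 39351262 counts, and levels are CPM (counts set relative to the library total and scaled by TMM), given as mean ± SD over 3 control and 4 cKO libraries. The female-specific RNA Xist was at 1324 and 1102 CPM in cKO replicates 3 and 4 and at most 0.504 CPM in the other 5 libraries, so all 3 controls but only cKO replicates 1 and 2 lacked it. Genotype and sex therefore overlap in part. Of all genes tested, 1.09% were called at an adjusted p under 0.05, 0.766% as higher and 0.322% as lower in cKO.

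Of the 10 genes 3 rose and 0 fell at that threshold: the survival genes Bcl2l2 and Bcl2 and the BH3-only gene Pmaip1. In 5 of the 10 every cKO library lay above every control library, as in 8.67% of all genes tested, and in 0 of the 10 every cKO library lay below, as in 8.28% of all. At an unadjusted p under 0.05, 5 of the 10 were higher and 1 lower, beside 9.4% and 8.5% (17.9% together) of all genes tested. The median log2 fold change of the 10 was 0.118, beside -0.006 over all genes tested. Because the genes were chosen with earlier results of these libraries known, these counts describe the 10 genes and are no test of the family. By role, 2 of 4 survival genes, 0 of 2 effectors and 1 of 4 BH3-only genes were called. By DESeq2, which called 4.68% of the 13440 genes it gave an adjusted p, the count was 4, with Mcl1 as the fourth. None of the 10 was called in the 5 libraries without Xist, and 17 of all 14973 genes tested there were called. In those libraries the log2 fold change was 0.29 for Bcl2l2 (adjusted p = 0.134), 0.26 for Bcl2 (0.19) and 0.61 for Pmaip1 (0.238), all by edgeR. Within the libraries whose titles carry the code F169 (2 control, 3 cKO) the values were 0.30 (adjusted p = 0.0853), 0.21 (0.183) and 0.68 (0.176), again by edgeR. There 0 of the 10 and 20 of all 14949 genes tested were called. RNA came from whole tissue, so more cells of a type that expresses a gene and more RNA of it per cell cannot be told apart.

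**Figure D1:**
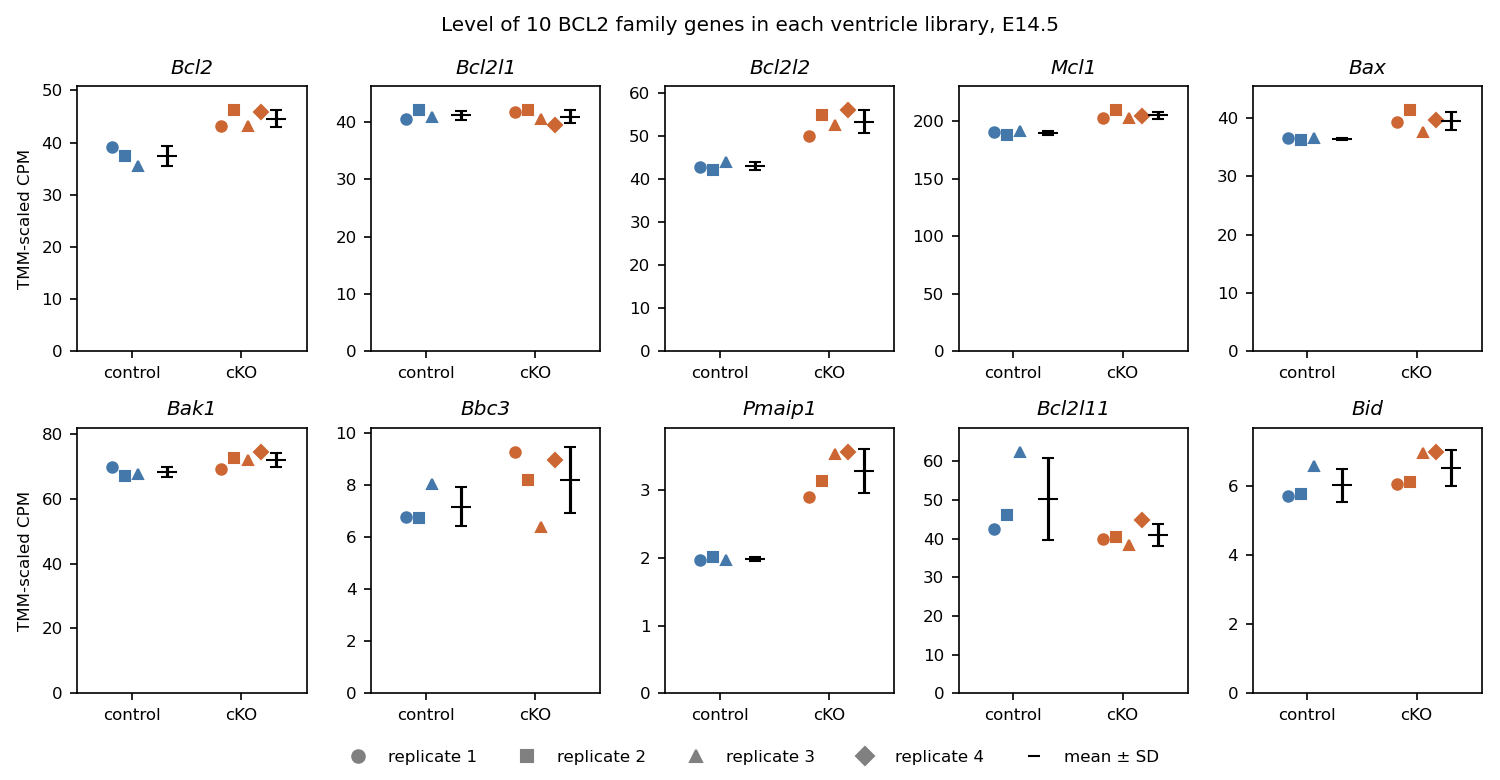
TMM-scaled CPM (vertical axis, from 0) of each of the 10 genes in every control (blue) and cKO (orange) library, with marker shapes for replicate numbers and black bars for the mean ± SD. In Bcl2, Bcl2l2, Mcl1, Bax and Pmaip1 each cKO point lies above each control point, and 1 control point of Bcl2l11 stands at 62.3 CPM, above the rest.

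Among the survival genes, Bcl2l2, which encodes BCL-W (chr14:54883425-54888235, plus strand, in the table's coordinates), had the smallest p of the 10. Its level was 42.8, 42.2 and 43.9 CPM in control replicates 1 to 3 and 49.9, 54.8, 52.5 and 55.9 CPM in cKO replicates 1 to 4. The groups did not overlap, and the gap between the highest control and the lowest cKO library was wider than the range of the controls. That range understates the error, as the controls differed by 2.00% (SD over mean) where counting alone gives 2.52%. The rise was 1.24-fold (95% interval 1.16 to 1.33; log2 0.31, SE 0.046, adjusted p = 0.0205 by edgeR). The call held without cKO replicate 1 (adjusted p = 0.0137) or 4 (0.0376) and was lost by edgeR without control replicate 1 (adjusted p = 0.0695), 2 (0.0858) or 3 (0.0641) or cKO replicate 2 (0.0754) or 3 (0.0555), while its log2 fold change stayed between 0.286 and 0.342 in all 17 alternatives. In the GENCODE M21 annotation (GRCm38, the mm10 assembly) Bcl2l2 on chromosome 14 shares 594 exon bases with Gm20521, a coding gene on the same strand that is not listed in the table, so part of its count is uncertain. Pabpn1, which lies downstream on that strand, was at 161 ± 7.52 CPM in control ventricle and 182 ± 4.58 CPM in cKO (log2 0.17, SE 0.040, adjusted p = 0.0763 by edgeR).

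Bcl2, the founding survival gene (chr1:106538176-106714291, minus strand), was at 39.2, 37.5 and 35.5 CPM in the controls, and the cKO libraries held 43.2, 46.2, 43.2 and 45.9 CPM. Each cKO library again lay above each control. The rise was 1.19-fold (95% interval 1.11 to 1.28; log2 0.26, SE 0.047, adjusted p = 0.0425 by edgeR). Leaving out any of the 7 libraries ended this call (adjusted p from 0.0539 to 0.143, log2 0.22 to 0.29), so the rise was steady in size but close to the threshold. An antisense gene, D630008O14Rik, overlaps 558 exon bases of Bcl2 and is not listed in the table, and no source used here states whether counting kept the strands apart.

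Mcl1, whose short-lived protein binds BAK and the BH3-only proteins, was the most abundant of the 10 in CPM. It was at 190.8, 188.2 and 191.6 CPM in the controls, and the cKO libraries held 203, 210, 203 and 205 CPM, with no overlap. The difference was small beside those of Bcl2l2 and Bcl2, at 1.08-fold (95% interval 1.03 to 1.13), and did not pass (log2 0.11, SE 0.031, adjusted p = 0.116 by edgeR). DESeq2 gave Mcl1 an adjusted p of 0.0233.

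Bcl2l1, the gene of BCL-XL, was not called. Its level was 40.6, 42.1 and 40.8 CPM in the controls and 41.7, 42.1, 40.5 and 39.5 CPM in the cKO libraries. The groups overlapped throughout, and the fold was 0.995 with a 95% interval of 0.937 to 1.06 (log2 -0.01, SE 0.039, adjusted p = 0.938 by edgeR), which leaves out a rise as large as the 1.19-fold seen for Bcl2.

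Neither effector was called. Bax, which moves to the mitochondrion when activated, was at 36.5, 36.2 and 36.6 CPM in the controls, and the cKO libraries held 39.3, 41.4, 37.6 and 39.8 CPM. All 4 cKO libraries lay above the controls, cKO replicate 3 by the least, and the 1.08-fold difference (95% interval 1.02 to 1.16) did not pass over all genes (log2 0.12, SE 0.042, adjusted p = 0.19 by edgeR). The control libraries differed by 0.582% (SD over mean), less than the 2.73% that counting alone gives at their depth, so this spread understates the error of Bax. Bax shares 192 exon bases with Gm45808 on its own strand. Bak1, the second effector, was at 69.8, 67.0 and 67.5 CPM in the controls, and the cKO libraries held 69.1, 72.5, 72.0 and 74.3 CPM. Here cKO replicate 1 lay below control replicate 1, and the 1.06-fold difference (95% interval 0.998 to 1.12) did not pass (log2 0.08, SE 0.037, adjusted p = 0.294 by edgeR). Bak1 lies on chromosome 17, 161 kb from Lemd2, and within the span of Ggnbp1 on the opposite strand. Ggnbp1 was at 6.20 ± 0.211 CPM in control ventricle and 4.64 ± 0.374 CPM in cKO, against 68.1 ± 1.5 and 72.0 ± 2.17 CPM for Bak1.

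Among the BH3-only genes, Pmaip1 (Noxa), which neutralises MCL1, had the largest fold change of the 10. It was at 1.96, 2.01 and 1.97 CPM in the controls, from 68, 80 and 70 counts. The cKO libraries held 2.89, 3.13, 3.53 and 3.55 CPM, from 86, 117, 102 and 131 counts. The lowest cKO library lay above each control, and the rise was 1.66-fold (95% interval 1.35 to 2.02; log2 0.73, SE 0.13, adjusted p = 0.0361 by edgeR). Its control libraries differed by 1.39% (SD over mean) where counting alone gives 11.7%, so their closeness is no measure of precision at this depth. The call held without cKO replicate 1 (adjusted p = 0.0412 by edgeR) and was lost without control replicate 1 (0.105), 2 (0.114) or 3 (0.126) or cKO replicate 2 (0.101), 3 (0.102) or 4 (0.0744). The cKO libraries with Xist were the upper pair, and without them the log2 value was 0.61 (SE 0.16, adjusted p = 0.238 by edgeR). The part of sex in the difference was not tested.

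Bbc3 (PUMA), also known as a p53 target, varied more between libraries of one genotype. It was at 6.77, 6.73 and 8.04 CPM in the controls, and the cKO libraries held 9.28, 8.19, 6.40 and 8.95 CPM. The lowest value of all 7 was cKO replicate 3, while the other cKO libraries lay above each control. The 1.15-fold difference did not pass, and its 95% interval ran from 0.936 to 1.40 (log2 0.20, SE 0.13, adjusted p = 0.47 by edgeR), so a rise of the size of Bcl2l2 or a small fall both lie within it. With 1 library left out the log2 value ran from 0.14 without cKO replicate 1 (SE 0.14, adjusted p = 0.636 by edgeR) to 0.29 without cKO replicate 3 (SE 0.10, adjusted p = 0.242).

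Bcl2l11 (BIM), an activator of BAX and BAK that FOXO factors are known to induce, had the lowest fold change of the 10. Its level was 42.4, 46.1 and 62.3 CPM in the controls and 39.96, 40.5, 38.4 and 44.9 CPM in the cKO libraries. Control replicate 3 stood apart from the other controls, and cKO replicate 4 overlapped control replicate 1. The fold was 0.816 (95% interval 0.681 to 0.977; log2 -0.29, SE 0.12, adjusted p = 0.229 by edgeR), and without control replicate 3 the log2 value was -0.11 (SE 0.067, adjusted p = 0.503). Control replicate 3 and cKO replicate 4 carry the code F191 in their titles and the other 5 libraries the code F169, which the labels do not explain. Within each code the cKO libraries lay below the controls; within F169 the log2 value was -0.16 (SE 0.053, adjusted p = 0.281 by edgeR), and with the code as a term it was -0.25 (SE 0.064, adjusted p = 0.0879). F191 holds 1 library of each group and allows no test of its own.

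Bid, which caspase-8 cuts to carry a death receptor signal to the mitochondrion, was at 5.70, 5.75 and 6.57 CPM in the controls, and the cKO libraries held 6.05, 6.10, 6.96 and 6.97 CPM. The groups overlapped, and the 1.09-fold difference did not pass (95% interval 0.932 to 1.26; log2 0.12, SE 0.098, adjusted p = 0.568 by edgeR). The upper cKO values were those of the libraries with Xist, and without them the log2 fold change was 0.02 (SE 0.12). Without control replicate 3, the highest control, it was 0.19 (SE 0.11, adjusted p = 0.469 by edgeR).

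**Figure D2:**
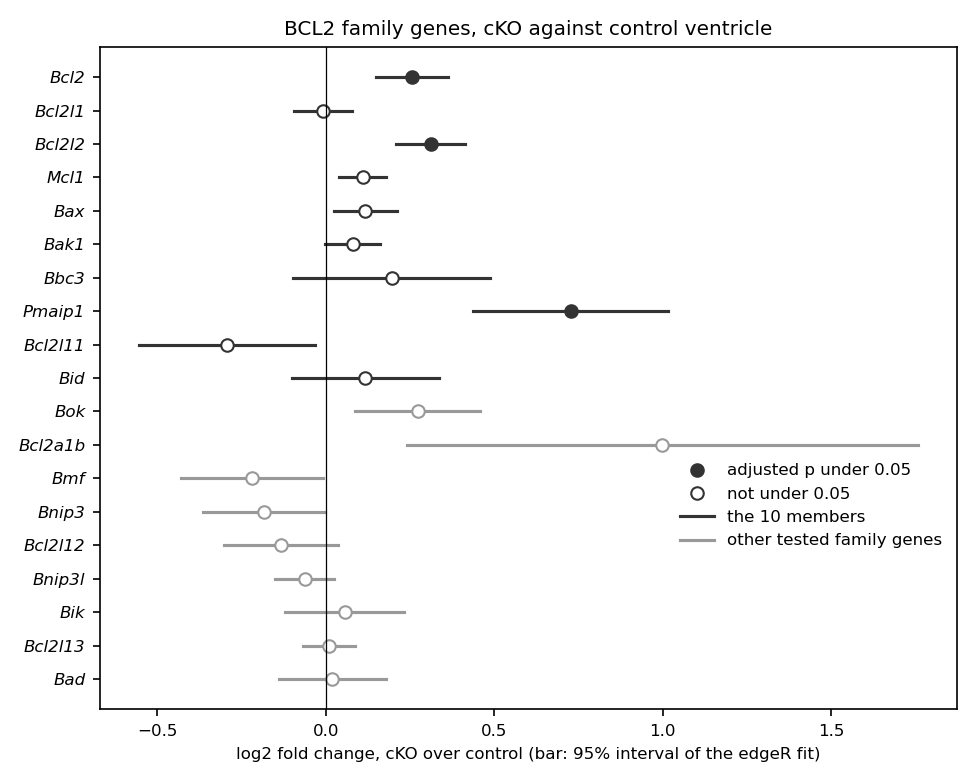
Log2 fold change of cKO over control (horizontal axis) of the 10 genes (black) and of the 9 other tested family genes (grey), with 95% intervals of the edgeR fit; filled points have an adjusted p under 0.05. The filled points are Bcl2, Bcl2l2 and Pmaip1, and the interval of Bcl2l1 is the one centred nearest to 0 among the 10.

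For each gene alone, an exact permutation test on log2 CPM (two-sided) gave p = 0.0286 for Bcl2, Bcl2l2, Mcl1 and Pmaip1, the smallest p that the 35 arrangements of 7 libraries allow. The same exact permutation test gave p = 0.0571 for Bax, 0.0857 for Bak1 and for Bcl2l11, 0.229 for Bid, 0.286 for Bbc3 and 0.743 for Bcl2l1. These values are unadjusted for the 10 genes.

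Promoter windows of 300 bases, from 250 bases before to 50 after a start site, were read from RefSeq (GRCm38.p6) for 9 of the 10 genes, Pmaip1 being the one without an entry, in 14 windows since some genes have several start sites. They were searched on both strands for the half-site consensus of p53, for the FOXO motif GTAAACA and for the C/EBP-ATF motif TGATGNAAT, because p53, FOXO3 and CHOP with ATF4 are the factors known for inducing BH3-only genes and Bax. As an exact match, the p53 half-site was in 1 window, that of Bax, and in 8.36% of all 32851 windows of the genome. Sites with a mismatch to the consensus were not counted, so a window without a match may still hold a p53 site. The FOXO motif was in 2 windows, of Bbc3 and Bcl2l11, and in 3.65% of all windows, and the C/EBP-ATF motif was in 0 of the 14 and in 0.965% of all. The sites are shown with 20 bases on either side because they lie in the effector and BH3-only genes whose differences did not pass; capitals mark the matched letters, which in Bbc3 read as the motif on the other strand.
Bax: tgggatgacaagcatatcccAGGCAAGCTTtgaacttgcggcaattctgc
Bbc3: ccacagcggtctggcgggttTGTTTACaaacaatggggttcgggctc
Bcl2l11: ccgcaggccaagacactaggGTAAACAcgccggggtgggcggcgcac
The Bax stretch is chr7:45467070-45467119 (minus strand), with the match at position -201 from the start site. The Bbc3 stretch is chr7:16310074-16310120 (plus strand) and the Bcl2l11 stretch chr2:128125791-128125837 (plus strand), with matches at positions -167 and -227 from their start sites. The windows of Bcl2 and Bcl2l2, the called genes that have one, held no match to these 3 motifs. A match here is a description of letters, and binding was not measured.

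Levels between genes were compared per length, as CPM per kilobase of merged coding-transcript exons in GENCODE M21. In control ventricle Mcl1 stood first at 55.6 ± 0.527, followed by Bax at 42.1 ± 0.245 and Bak1 at 28.5 ± 0.63 CPM per kilobase. Bcl2l1 at 10.6 ± 0.204 and Bcl2l2 at 10.5 ± 0.21 CPM per kilobase came next, and their libraries overlapped. Bcl2l11 (7.29 ± 1.54), Bcl2 (4.08 ± 0.204) and Bbc3 (3.96 ± 0.409) followed, the ranges of Bcl2 and Bbc3 overlapping, and then Bid (2.75 ± 0.224) and Pmaip1 (0.724 ± 0.0101 CPM per kilobase). Every other neighbouring pair in this order had ranges that did not meet. Transcripts of the effectors were thus above those of the BH3-only genes per length in every library, and Pmaip1 was the lowest in both groups.

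In cKO ventricle the order was the same except at one place. Bcl2l2, at 13.1 ± 0.65 CPM per kilobase, stood above Bcl2l1, at 10.5 ± 0.308, and their ranges did not meet. Bcl2 (4.87 ± 0.181) and Bbc3 (4.52 ± 0.708 CPM per kilobase) overlapped there too. Pmaip1 was last at 1.20 ± 0.118 CPM per kilobase, below the lowest Bid library at 2.76. The lengths assume that all annotated exons are used, so a gene with a long annotated end such as Bcl2 (9.16 kb) is set lower than one whose annotation is short such as Bax (0.867 kb). Counts and lengths may also rest on different gene models. Bcl2l1 starts at 152758732 in the deposited coordinates and at 152780668 in GENCODE M21, and Bcl2l2 shares 594 exon bases with Gm20521. The order of Bcl2l1 and Bcl2l2 therefore depends on the lengths used.

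**Figure D3:**
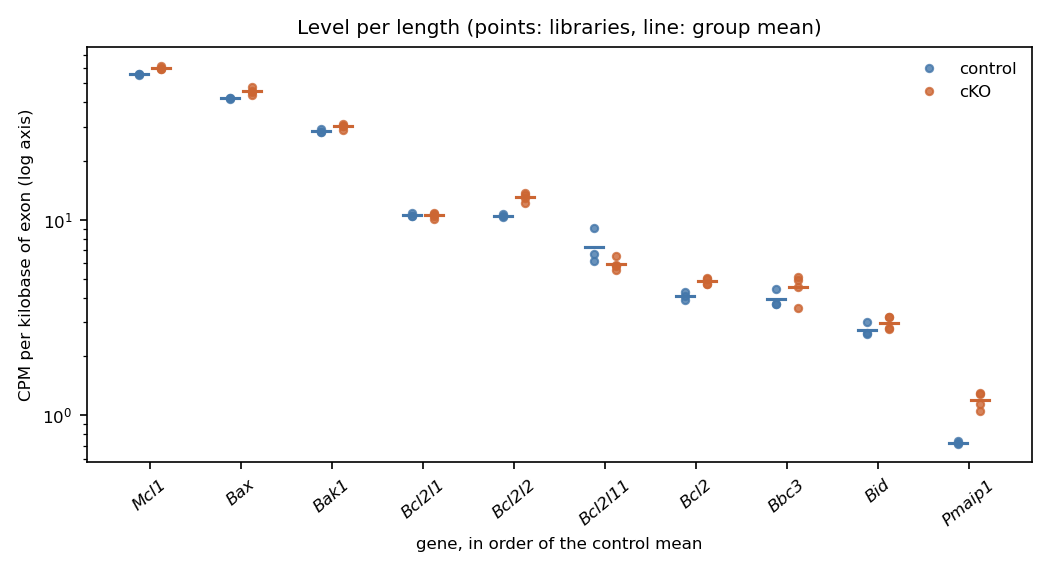
CPM per kilobase of exon (log axis) of the 10 genes in control (blue) and cKO (orange) libraries, points for libraries and lines for group means, in order of the control mean. Mcl1, Bax and Bak1 stand above the rest, Bcl2l1 and Bcl2l2 lie level in control, and Bcl2l2 lies higher in cKO at 13.1 against 10.5 CPM per kilobase.

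Ratios of a death gene to a survival gene within a library do not depend on library scaling, and are given as values without a test, each in percent of CPM. Pmaip1 was 1.03, 1.07 and 1.03% of Mcl1 in the controls and 1.42, 1.49, 1.74 and 1.73% in the cKO libraries. The groups did not overlap, and the mean log2 difference was 0.61, beside 0.73 for Pmaip1 alone, so the ratio largely repeats that rise. Bax was 93.1, 96.7 and 103% of Bcl2 in the controls and 91.1, 89.5, 87.2 and 86.7% in the cKO libraries. Each cKO library thus lay below each control. Set against Bcl2l1, in contrast, Bax was 89.9, 86.1 and 89.7% in the controls and 94.2, 98.3, 92.9 and 101% in the cKO libraries. The Bax ratio therefore shifted down or up depending on whether it was set against Bcl2, which rose, or against Bcl2l1, whose difference did not pass. Bcl2l11 was 22.2, 24.5 and 32.5% of Mcl1 in the controls and 19.7, 19.3, 18.9 and 21.9% in the cKO libraries, lower in each cKO library. That separation was narrow, at 22.2% in control replicate 1 against 21.9% in cKO replicate 4, and Bcl2l11 itself overlapped. Among single genes tested, 16.9% did not overlap in either direction, and how often ratios of other gene pairs do so was not examined. Bbc3 to Bcl2l1 overlapped, at 17.5 ± 1.96% in control and 20.04 ± 3.16% in cKO ventricle.

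**Figure D4:**
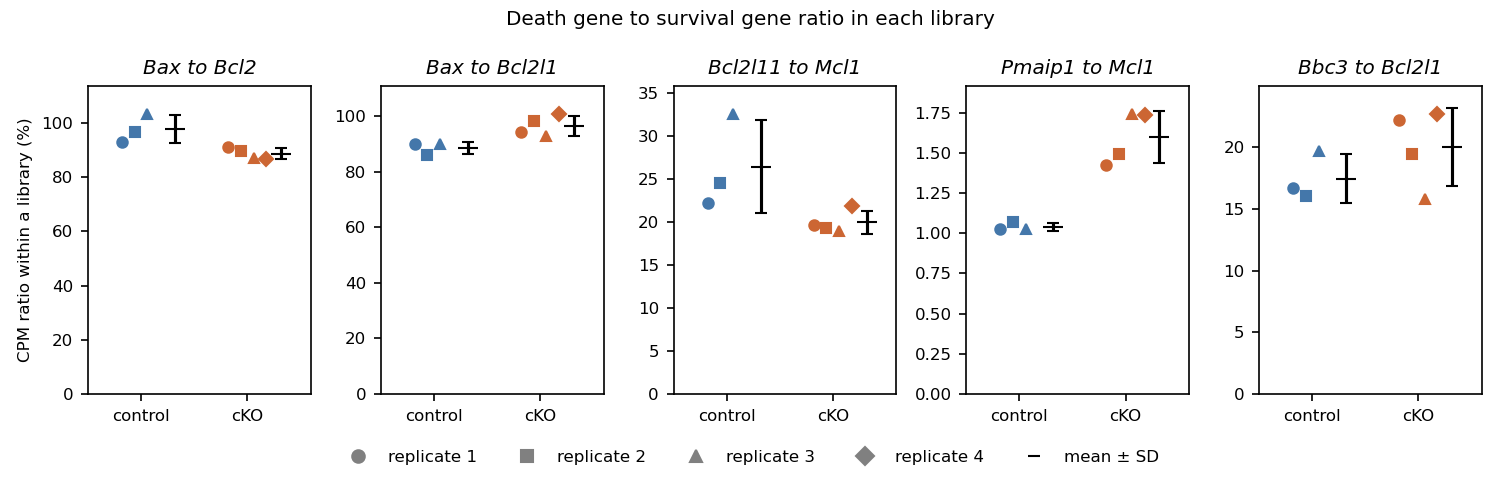
Ratio of CPM of a death gene to that of a survival gene in each library, in percent (vertical axis, from 0), by group, with black bars for the mean ± SD. Pmaip1 to Mcl1 and Bax to Bcl2l1 lie higher in each cKO library, Bax to Bcl2 and Bcl2l11 to Mcl1 lie lower, and Bbc3 to Bcl2l1 overlaps.

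Of 16 other BCL2 family genes, 9 were tested and 0 were called by edgeR or by DESeq2 (4 at an unadjusted p under 0.05 by edgeR, 2 higher and 2 lower), with a median log2 fold change of 0.010. Among all genes tested, 17.9% had an unadjusted p under 0.05 by edgeR. Bok, a BAX-like effector, was at 20.1 ± 2.12 CPM in control ventricle and 24.3 ± 1.90 CPM in cKO (log2 0.27, SE 0.083, adjusted p = 0.134 by edgeR). The BH3-only gene Bmf was at 34.3 ± 4.12 and 29.6 ± 3.05 CPM (log2 -0.22, SE 0.094), and the hypoxia-induced Bnip3 at 224 ± 20.1 and 197 ± 19.4 CPM (log2 -0.18, SE 0.080). Bcl2a1b, a survival gene of leukocytes, was at 0.330 ± 0.155 and 0.675 ± 0.159 CPM (log2 1.00, SE 0.34, adjusted p = 0.172 by edgeR), and its counts are uncertain because near-identical copies exist. Of 10 macrophage markers C1qb was called, as higher. At an unadjusted p under 0.05, beside 9.4% higher and 8.5% lower of all genes tested, 9 markers were higher and Mrc1 was lower. None was at 0, and their summed level ran from 101 to 105 CPM in control and from 112 to 126 CPM in cKO libraries. Their part in Bcl2a1b, or in any of the 10 genes, was not tested.

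Summed markers of heart muscle overlapped between the groups, from 31720 to 34566 CPM in control and from 28069 to 32920 CPM in cKO libraries, with 0 of 8 called (1 higher and 2 lower at an unadjusted p under 0.05, median log2 fold change -0.12). Myh7 makes up the largest share of that sum, and Ryr2 was at 569 to 647 CPM in control and at 500 to 548 CPM in cKO libraries, without overlap. Myh6 was at 2488 to 3332 CPM in control and at 3265 to 3492 CPM in cKO libraries, with overlap. Those of endothelium ran from 1081 to 1164 CPM and from 1102 to 1149 CPM, with 0 of 6 called (2 higher at an unadjusted p under 0.05). In the lists for epicardium and fibroblasts, smooth muscle and pericytes, red cells and atrial myocardium, 0 genes were called as well (1 smooth muscle gene, as lower, at an unadjusted p under 0.05). At that unadjusted p, 9.4% of all genes tested were higher and 8.5% lower. The part of these cell types in the values of the 10 genes was not tested.

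Downstream of the family, 0 of 15 apoptosome and inhibitor-of-apoptosis genes were called by edgeR (2 at an unadjusted p under 0.05), and their median log2 fold change was 0.015. For comparison, 17.9% of all genes tested had an unadjusted p under 0.05 by edgeR. DESeq2 called 4.68% of the genes it gave an adjusted p. Cycs, which encodes cytochrome c, was at 382 ± 23.3 CPM in control ventricle and 436 ± 26.3 CPM in cKO (log2 0.19, SE 0.057, adjusted p = 0.132 by edgeR, and 0.0282 by DESeq2, the 1 call of that tool in the list). The inhibitor-of-apoptosis gene Birc2 was at 34.0 ± 0.775 and 31.1 ± 1.23 CPM (log2 -0.13, SE 0.045), the initiator Casp9 had a log2 fold change of -0.12 (SE 0.058) and Xiap, which blocks caspases, 0.08 (SE 0.044). Of 10 mitochondrial partners of BAX and BAK 0 were called by either tool (2 at an unadjusted p under 0.05), among them Ppif, the cyclophilin of the permeability pore (log2 -0.16, SE 0.053), the ADP/ATP carrier Slc25a5 (0.13, SE 0.045) and Vdac2, which brings BAK to the membrane (0.06, SE 0.042). Of 7 genes that control the turnover of MCL1 protein 0 were called by either tool (2 at an unadjusted p under 0.05), with Btrc at -0.13 (SE 0.041) and the deubiquitinase Usp13 at -0.13 (SE 0.046).

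Upstream, Trp53 itself was at 79.8 ± 1.05 CPM in control ventricle and 78.3 ± 3.41 CPM in cKO (log2 -0.03, SE 0.040). Of 6 tested p53 regulators and relatives 0 were called by edgeR (1 at an unadjusted p under 0.05), and Mdm2, the p53 ligase that is itself a p53 target, was the 1 called by DESeq2 (66.1 ± 2.76 to 74.1 ± 2.49 CPM; adjusted p = 0.0916 by edgeR and 0.0296 by DESeq2). Of 12 p53 targets of the death pathway 0 were called by edgeR. At an unadjusted p under 0.05, 4 were higher, beside 9.4% of all genes tested as higher and 17.9% in either direction. Beside 4.68% of all genes that DESeq2 gave an adjusted p, it called 2 of the 12. These were the nuclease gene Aen (32.2 ± 2.23 and 38.1 ± 2.04 CPM; log2 0.24, SE 0.059) and Zmat3 (54.2 ± 1.69 and 64.3 ± 5.61 CPM; log2 0.25, SE 0.064). The death receptor Fas was at 1.13 ± 0.269 and 1.66 ± 0.207 CPM (log2 0.55, SE 0.20), and its adaptor Fadd at 31.2 ± 1.53 and 28.1 ± 1.01 CPM (log2 -0.15, SE 0.050); of 8 death receptor genes 0 were called by either tool (2 at an unadjusted p under 0.05).

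Of 10 transcription factors known to induce BH3-only genes 0 were called by edgeR (5 at an unadjusted p under 0.05, 3 higher and 2 lower). The shares over all genes tested were 9.4% higher and 8.5% lower at that unadjusted p, and DESeq2 called 4.68%. Ddit3, the gene of CHOP, was at 7.99 ± 0.701 CPM in control ventricle and 10.3 ± 1.18 CPM in cKO (log2 0.38, SE 0.10, adjusted p = 0.107 by edgeR and 0.0479 by DESeq2). Its upstream factor Atf4 was at 104 ± 10.3 and 120 ± 3.77 CPM (log2 0.21, SE 0.059, adjusted p = 0.109 by edgeR and 0.0281 by DESeq2), and was called by edgeR without control replicate 1 (log2 0.30, adjusted p = 0.0322). Foxo3 was at 28.9 ± 3.83 and 23.6 ± 2.14 CPM (log2 -0.29, SE 0.094, adjusted p = 0.162 by edgeR). As in Bcl2l11, its highest library was control replicate 3, at 33.3 CPM, against 26.7 and 26.6 CPM in the other controls. Foxo4 (63.0 CPM, against 62.5 CPM in control replicate 2), Bmf, Bnip3 and Casp9 were highest in that library too, while Foxo1 was lowest there (75.7 CPM). These genes were picked after looking at their values, and the share of all genes highest in that library was not counted. A link between Foxo3 and Bcl2l11 was not tested. E2f1 had a log2 fold change of -0.14 (SE 0.044).

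For each of the 3 called genes the 5 genes with the most similar log2 CPM over the 7 libraries were looked up among 12811 genes, as a description; both genotypes enter, so a shared group difference is part of the likeness. Closest to Bcl2 were Hdlbp (Pearson r = 0.994 over 7 libraries), Mdm2 (0.986), Rps19bp1 (0.983), Cipc (0.981) and Atg4b (0.980). Closest to Bcl2l2 were Polq (0.997), Pgam1 (0.995), Relt (0.994), Adam9 (0.982) and Coa5 (0.981). Closest to Pmaip1 were Plcg2 (0.994), Cdv3 (0.988), Slc35b1 (0.987), Yars (0.983) and Relt (0.982). Relt, a receptor of the TNF receptor family, was thus near both Bcl2l2 and Pmaip1. Of the named neighbours Polq, Plcg2 and Cdv3 were called by edgeR, beside 1.09% of all genes tested. The neighbours were picked from 12811 genes for their likeness to called genes, so these calls and the shared neighbour lend no further support.

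**Figure D5:**
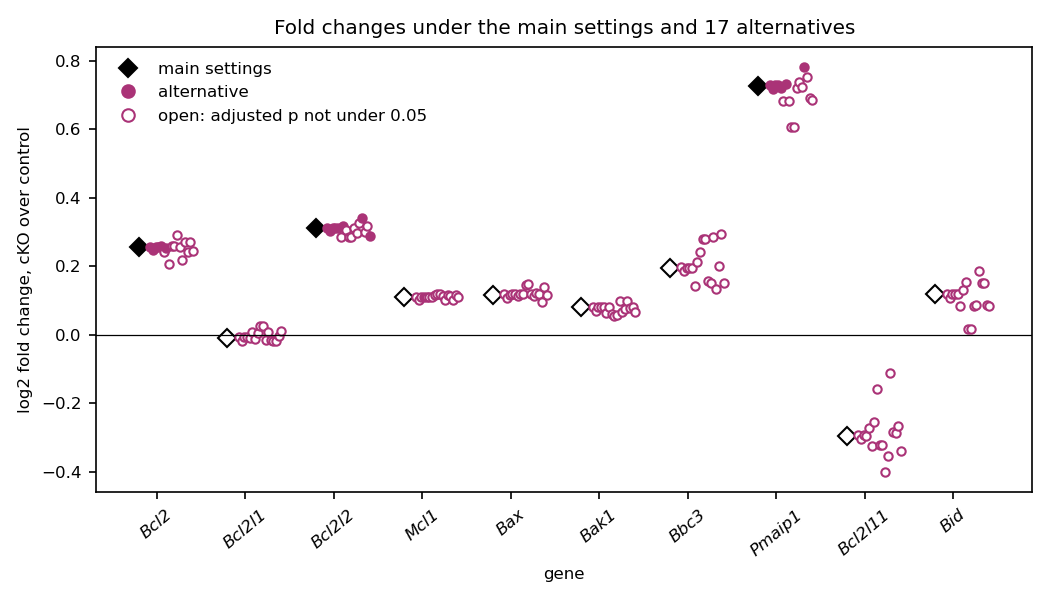
Log2 fold change of cKO over control (vertical axis) of the 10 genes under the main settings (diamonds) and 17 alternatives (circles); open symbols have an adjusted p that is not under 0.05. Bcl2l2 lies between 0.286 and 0.342 and Bcl2 between 0.208 and 0.293 in the alternatives, while Bcl2l11 ranges from -0.401 to -0.11 and Bcl2l1 lies on either side of 0.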

How the data were processed

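RNA was made into libraries with a directional Illumina kit, per the labels' protocols. The authors deposited a table of estimated counts for each gene. Per the submitters' processing notes STAR 2.4.2a, HTSeq 0.6.1 and mm10 were used, their roles unstated. Estimated counts were rounded, as 30.3% of the deposited values had decimals. Library columns were matched to samples by the code in their titles. 1 further value column matched, gene by gene, the row total of the other 7 (tolerance 1e-06 counts) and was not used, so control replicate 4 was not analysed here.

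Genes were filtered with filterByExpr (minimum count 10), which removed 471. Libraries were scaled by TMM and compared with edgeR 4.0.16 (glmQLFit, glmQLFTest, R 4.3.3), with Benjamini-Hochberg adjustment over all genes tested and a threshold of 0.05. SE is the log2 fold change divided by the root of F, and 95% intervals use the fit's degrees of freedom. Permutation tests used log2 CPM (prior count 2). Controls are described as littermates without a litter number, so p-values cover only sample-to-sample spread, part of which may be technical. The cKO libraries do not all share an embryo, as replicates 1 and 2 held Y-linked RNA and replicates 3 and 4 Xist. The edgeR step was tested on simulated data. The 10 genes, the lists and the tests were chosen with earlier results of these data known. Named are the 10 genes, Lemd2, Xist, called genes or up to 4 with the smallest p of each list (any other gene was picked after looking at its values), and the 5 genes most like each called gene. Alternatives were DESeq2 1.42.0, its size factors, upper-quartile factors, limma-voom (limma 3.58.1), no filter, the replicate number as a block, the F code or Y-linked expression as a term, F169 alone, no Xist-expressing library, and each library left out.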

Additional observations from a re-analysis of the deposited data

Results flagged for a closer look

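Of 47 sets of 4 cKO values examined (the genes named by rule, Lemd2 and the ratios), 1 had a library far from the rest; chance flags about 1 in 20. Vdac2, which brings BAK to the outer membrane, was at 373 CPM in cKO replicate 1 against 404 to 407 CPM in the other 3 cKO libraries, so that the gap took 0.913 of the range. The controls lay between 369 and 389 CPM.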

How the results depend on the processing

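Bcl2, Bcl2l2 and Pmaip1 stayed higher under all 17 alternatives. With the replicate block their log2 fold changes were 0.242 (adjusted p = 0.173), 0.287 (0.124) and 0.682 (0.19) by edgeR. That fit called 0 of the 10 genes and 13 of all genes. Same-numbered libraries deviated together with r of 0.0386, -0.0751 and -0.0791, and no block stands in the main results. Deviations were taken from means of few libraries, so these r values cannot exclude a pairing. The F code, which the labels do not explain, is not in the main fit either. Replicates 1 and 2 of both groups also share the code F169. The F191 libraries, control replicate 3 and cKO replicate 4, gave r = 0.224, the highest of any control and cKO pair. Pairs within F169 ran from -0.0751 to 0.189, and pairs across codes from -0.2 to 0.064. Adding the F code to the edgeR fit gave log2 fold changes of 0.254 for Bcl2, 0.317 for Bcl2l2 and 0.732 for Pmaip1. It called 3 of the 10 and 214 of all genes. In the F169 libraries alone the values were 0.208, 0.305 and 0.681, with a term for Y-linked expression 0.259, 0.286 and 0.607, and without the Xist-expressing libraries 0.259, 0.287 and 0.607; each called 0 of the 10, and 20, 20 and 17 of all genes. Leaving out 1 library gave 0.22 to 0.293 for Bcl2, 0.289 to 0.342 for Bcl2l2 and 0.686 to 0.781 for Pmaip1, with 0 to 2 of the 10 and 28 to 133 of all genes called, against 162 in all 7 libraries; the cause was not tested. DESeq2 called 629 genes and Mcl1 at 0.111. Bcl2l1 lay on either side of 0: 0.0096 with the block, 0.0053 in F169, 0.0259 with the Y term, 0.0261 without the Xist libraries, and -0.0189 to 0.0115 with 1 library left out. Depth limits Pmaip1, which had 68 to 131 counts.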
